A study of Mus musculus with 4 samples.

Results

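Phlda3, Eda2r, Tnfrsf10b, Fas, Perp, Aen, Ei24 and Tnfrsf1a, 8 genes of cell death of which most act at membranes, were followed in the small intestine (SI) of irradiated mice with and without p53. They were taken from the deposited table by gene symbol, and all 8 of them were found among its 56748 genes. The genes had been picked with the difference between the genotypes in these libraries already known. Their levels and fold changes are therefore given as a description, without p-values. How many of them passed a threshold is also given, and only as a description. None of this is evidence that the group as a whole responds to p53.

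The libraries came from SI tissue of WT (p53+/+) mice and of p53-/- mice, which carry a germline deletion in the p53 gene Trp53 and so lack p53 in every cell type of the tissue. All mice received 12 Gy total-body irradiation (TBI) from a Cs-137 source and were sampled at 1 day post-TBI, and no unirradiated SI was analysed here. The methods of the study describe animals of 8 to 12 weeks, matched for age and sex, from lines bought for each genotype. They do not say whether the animals were littermates, and neither they nor the labels say whether tissue was pooled. Each genotype had 2 libraries, called 7 and 8 for WT and 9 and 10 for p53-/- after the columns of the table. They hold between 15005479 and 22173164 reads counted on genes.

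Ionizing radiation stabilizes p53, which then switches on genes that arrest the cell cycle, repair DNA or kill the cell. In the irradiated intestine this death is an early event in the crypts, where the stem cells lie. Beside the well-known mitochondrial route, p53 has targets at the cell surface and at inner membranes. Fas, Tnfrsf10b (DR5) and Tnfrsf1a (TNFR1) are receptors of the tumor necrosis factor (TNF) family whose cytoplasmic death domain recruits adaptors and caspase-8. Eda2r (XEDAR) is a TNF family receptor for the ectodysplasin EDA-A2 and has no death domain. Perp is a membrane protein of the PMP22 family that also belongs to desmosomes, and Ei24 is a membrane protein of the endoplasmic reticulum. Phlda3 consists largely of a pleckstrin homology domain that competes with the kinase AKT for membrane lipids, and Aen is a p53-induced nuclease.

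Levels are given as CPM, the counts of a gene per 1000000 counts of its library, with library totals adjusted by TMM. A fold change is the p53-/- level against the WT level on the log2 scale. Across the table, 16094 genes had enough reads for edgeR's quasi-likelihood test, whose p-values were adjusted over all of them by the Benjamini-Hochberg method (threshold 0.05). An error given with a log2 fold change is its standard error, and an error given with a mean level is the SD. Trp53 itself was at 57.7 and 47.1 CPM in WT, and p53-/- libraries had 19.8 and 22.5 CPM (log2 fold change -1.31 ± 0.188, adjusted p = 0.0602 by the quasi-likelihood test of edgeR). The part of the gene that is deleted is not given in the sources used here, so the remaining reads do not check the genotype.

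The libraries differed in the summed levels of genes that mark cell types. The 6 epithelium genes (Epcam, Cdh1, Krt8, Krt18, Krt19 and Vil1) summed to between 14408 and 19668 CPM in WT and between 10732 and 13070 CPM in p53-/-. The 8 T cell genes summed to between 6.0 and 12.5 CPM in WT and between 55.7 and 105 CPM in p53-/-, and all 8 were higher in both p53-/- libraries. The 6 B cell genes lay between 1.11 and 1.82 CPM in WT, and at 21.8 CPM in library 9 and 431 CPM in library 10. The 5 macrophage genes summed to between 30.1 and 96.7 CPM in WT and between 128 and 498 CPM in p53-/-. In library 10, Lyz2 alone gave 411 CPM of that sum. The 4 adipocyte genes summed to between 50.2 and 121 CPM in WT and between 13.9 and 18.4 CPM in p53-/-. Cidec made up most of the adipocyte sum in each library, at 117 and 43.2 CPM in WT and 18.4 and 13.8 CPM in p53-/-. The sums of the fibroblast, smooth muscle and endothelium genes overlapped between the genotypes, and the WT libraries were far apart. In WT libraries 7 and 8, the 4 fibroblast genes summed to 63.7 and 381 CPM, against 279 and 295 CPM in p53-/-. The 4 smooth muscle genes were at 336 and 3140 CPM against 762 and 518 CPM. The 3 endothelium genes were at 14.3 and 47.2 CPM against 39.6 and 52.8 CPM. The 5 skeletal muscle genes, mostly Acta1, summed to 55.7 and 48.8 CPM against 112 and 66.2 CPM. In such bulk tissue, fewer cells of a type and less RNA per cell cannot be told apart.

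Both p53-/- libraries lay below both WT libraries for 7 of the 8 genes, and above them for Fas. Among all genes tested, 24.4% lay below in this way and 26.4% lay above. The median log2 fold change of the 8 genes was -1.30, against -0.01 over all genes tested. Phlda3 and Eda2r passed the threshold with lower levels, 2 of the 8, beside 0.193% of all genes tested that passed it with lower levels and 0.298% with higher levels. Since the genes were chosen from this contrast, nothing is read from these shares. The count of 2 past the threshold, though not the size of the differences, depended on library 10. Without it the log2 fold changes were -5.48 for Phlda3 and -7.06 for Eda2r, but 0 of the 8 genes, and 0 genes of the whole table, passed the threshold in edgeR's quasi-likelihood test, while 5 of the 8 were lower and 0 higher at an unadjusted p under 0.05, beside 2.6% and 4.59% of the genes tested without that library. On all 4 libraries this looser limit took in 5 of the 8 with lower levels and 1, Fas, with a higher level, beside 7.92% and 10% of all genes tested. With DESeq2 on all 4 libraries, 5 of the 8 passed with lower levels, namely Phlda3, Eda2r, Tnfrsf10b, Aen and Ei24, and 0 with higher levels, beside 4.02% and 4.95% of all genes tested.

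**Figure D1:**
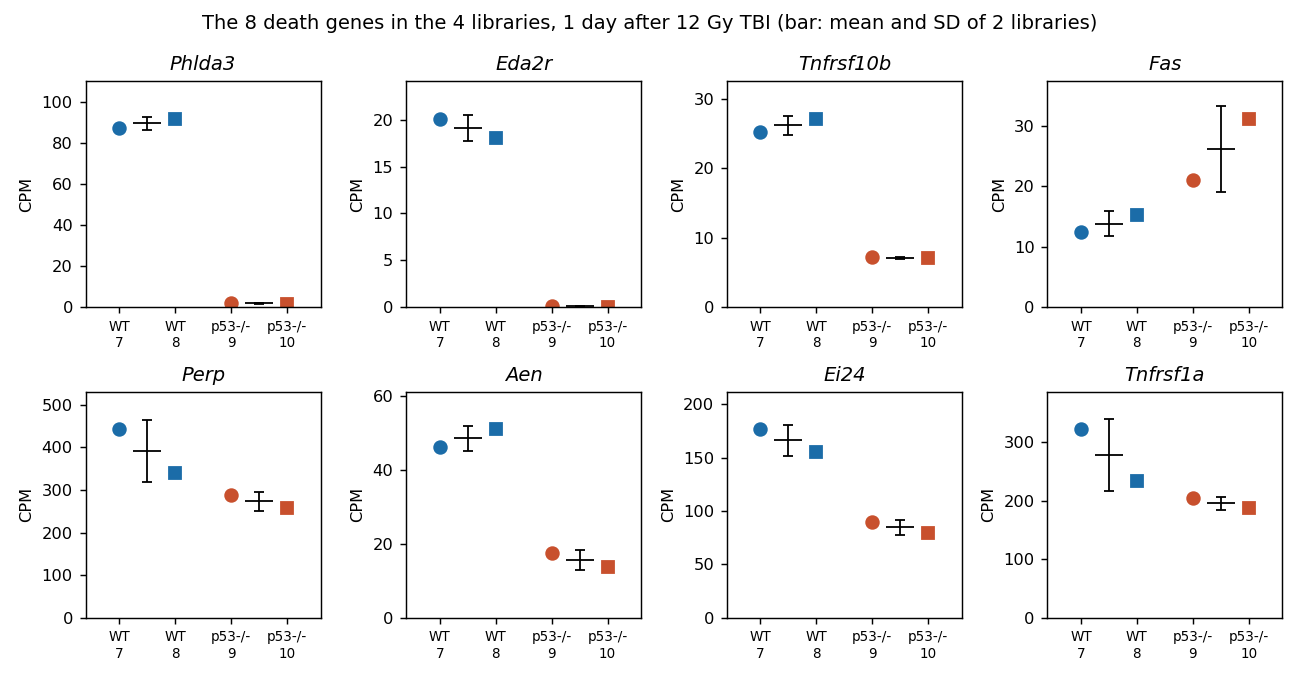
Level of each of the 8 genes in CPM (vertical axes, each from 0) in the 4 libraries (WT in blue, p53-/- in red), with the mean and SD of the 2 libraries of a genotype in black. Phlda3 and Eda2r are close to 0 in both p53-/- libraries, Tnfrsf10b, Aen and Ei24 are lower there, Perp and Tnfrsf1a differ by less than 1.5-fold between the means, and Fas is higher.

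Phlda3 (ENSMUSG00000041801), the competitor of AKT at the membrane, had 1410 and 1416 counts in WT, against 44 and 31 counts in p53-/-. This was 89.6 ± 3.26 CPM in WT and 1.74 ± 0.273 CPM in p53-/- (SD, n = 2), a 51.6-fold lower mean and a log2 fold change of -5.68 (standard error 0.207). The WT libraries differed from each other by a factor of 0.950, and every pairing of a p53-/- library with a WT library gave between 0.0168 and 0.0221 of the WT level. Only 11 of the 16094 genes tested, or 0.0683%, had a lower log2 fold change.

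Eda2r (ENSMUSG00000034457), the receptor for EDA-A2, had 325 and 279 counts in WT, against 3 and 1 counts in p53-/-, which is 20.1 and 18.1 CPM against 0.131 and 0.0497 CPM. With so few reads in p53-/- the size of the difference is set by counting error. On the summed counts of 604 and 4 the WT level was 205 times the p53-/- level, with a 95% exact binomial interval of 79.8 to 756 that covers counting error only. The fitted log2 fold change of -7.59 depends on the prior count added to each library, and was -6.59 with a prior count of 2. Both p53-/- libraries were nearly empty of Eda2r reads, and both WT libraries were not.

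The adipocyte genes were also low in the p53-/- libraries, with Plin1 at 33 and 51 counts in WT and 0 and 0 in p53-/-. Adipoq had 40 and 51 counts in WT and 0 and 3 in p53-/-, Cidec 1883 and 666 against 419 and 277, and Lep at most 5 counts in any library. The part of adipose tissue in the levels of Phlda3 and Eda2r was not tested.

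The bases upstream of both genes are shown because these are the genes with the largest differences. They are taken from RefSeq's mouse genome GRCm38.p6 and run from 250 to 11 bases before the transcript start. Capitals mark GC boxes (GGGCGG or its reverse complement) and the TATA motif TATAAA on either strand.
Phlda3, chr1:135765835-135766074, plus strand: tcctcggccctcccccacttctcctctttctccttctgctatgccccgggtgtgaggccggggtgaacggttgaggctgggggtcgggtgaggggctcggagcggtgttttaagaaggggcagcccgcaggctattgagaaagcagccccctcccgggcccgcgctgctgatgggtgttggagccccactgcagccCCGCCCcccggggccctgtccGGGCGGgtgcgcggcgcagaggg
Eda2r, chrX:97377220-97377459, minus strand: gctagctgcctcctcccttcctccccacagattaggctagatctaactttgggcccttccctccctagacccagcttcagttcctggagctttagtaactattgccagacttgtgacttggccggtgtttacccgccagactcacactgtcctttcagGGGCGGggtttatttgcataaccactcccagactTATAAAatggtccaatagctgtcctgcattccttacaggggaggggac
The Phlda3 window was rich in G and C, at 71.7% over its 300 bases, and that of Eda2r was at 50.3%, against a median of 52.7% over all promoter windows. A TATA motif stood in the Eda2r window and not in that of Phlda3, and 15.7% of all genes with a window hold one. GC boxes stood in both, and 38.2% of all genes hold one.

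The profiles most like those of Phlda3 and Eda2r were sought over the 4 libraries, among protein-coding genes outside the 8. Likeness was the smallest distance between centred log2 CPM values, computed with a prior count of 2. For Phlda3 the nearest were Car3 (distance 0.627), Nlrp1b (0.878), Gdf15 (0.938), 1700007K13Rik (0.988) and Plin1 (1.07). For Eda2r the nearest were Cfd (0.953), Car3 (1.35), Nlrp1b (1.78), 1700007K13Rik (1.88) and Gdf15 (1.99). Phlda3 and Eda2r themselves stood at a distance of 1.05 from each other. Gdf15, a secreted stress cytokine and p53 target, was at 26.3 and 34.2 CPM in WT and at 1.10 and 0.995 CPM in p53-/-. Nlrp1b, an inflammasome sensor, was at 20.3 and 20.3 CPM in WT and at 0.351 and 0.647 CPM in p53-/-. Cfd, Plin1 and Car3 are genes with high levels in adipose tissue. 1700007K13Rik and Plin1 had 0 counts in both p53-/- libraries, so their distances depend on the prior count. With 4 libraries, such a distance describes the profiles and tests no relation.

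Tnfrsf10b (ENSMUSG00000022074), the receptor for the death ligand TRAIL, had 407 and 418 counts in WT, against 164 and 141 in p53-/-. Its level was 26.2 ± 1.37 CPM in WT and 7.10 ± 0.123 CPM in p53-/- (SD, n = 2), a 3.68-fold lower mean (log2 fold change -1.88, standard error 0.228). The 2 libraries of a genotype lay close together, and every p53-/- library was at between 0.259 and 0.285 of a WT library. Of the 3 death receptors it had the largest difference between the genotypes.

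Tnfrsf1a (ENSMUSG00000030341), the main receptor for TNF, had 5210 and 3621 counts in WT and 4660 and 3787 in p53-/-. It stood at 279 ± 61.9 CPM in WT and 196 ± 11.2 CPM in p53-/- (SD, n = 2), and its log2 fold change was -0.51 (standard error 0.224). The lower WT library, at 235 CPM, was close to the higher p53-/- library, at 204 CPM.

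Fas (ENSMUSG00000024778), the receptor for Fas ligand, was the only one of the 8 genes that was higher in both p53-/- libraries. It had 200 and 235 counts in WT and 481 and 627 in p53-/-, or 12.4 and 15.2 CPM against 21.1 and 31.2 CPM. The log2 fold change was 0.92 (standard error 0.281), and 87.6% of all genes tested had a lower one. The p53-/- libraries differed from each other by a factor of 0.676, more than the WT libraries did (0.812). Library 10, the higher of the pair, also had the higher T cell sum (105 against 55.7 CPM). Its B cell sum was higher too (431 against 21.8 CPM), and Fas is also made by activated lymphocytes. The macrophage sum (498 against 128 CPM) differed mostly through Lyz2, at 411 CPM against 53.2 CPM. Of the other macrophage genes, Csf1r and Cd68 were higher in library 10 than in library 9, and Adgre1 and Itgam were lower. The part of immune cells in the level of Fas was not tested. Without library 10 the log2 fold change of Fas was 0.66.

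Scaled by the length of their exons, so that genes can be compared with each other, Tnfrsf1a gave most of the RNA of these 4 TNF family receptors. Its share of their summed CPM per kilobase was 89.9% and 85.4% in WT and 87.2% and 81.6% in p53-/-. The share of Fas was 4.33% and 6.97% in WT and 11.3% and 17.0% in p53-/-, and that of Tnfrsf10b was 3.34% and 4.69% in WT and 1.46% and 1.44% in p53-/-. Eda2r gave 2.47% and 2.90% in WT and 0.0247% and 0.00947% in p53-/-. Among the receptors other than Tnfrsf1a, Fas was thus the most abundant in each of the 4 libraries, by a wider margin in p53-/-. These 3 receptors together summed to 14.0 and 15.4 CPM per kilobase in WT and to 11.6 and 16.4 in p53-/-, ranges that overlap.

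Aen (ENSMUSG00000030609), the nuclease, had 746 and 786 counts in WT and 400 and 276 in p53-/-. Its level was 48.6 ± 3.42 CPM in WT and 15.6 ± 2.69 CPM in p53-/- (SD, n = 2), 3.11-fold lower, for a log2 fold change of -1.64 ± 0.202 (standard error). The genotypes did not overlap.

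Ei24 (ENSMUSG00000062762), the membrane protein of the endoplasmic reticulum, had 2852 and 2401 counts in WT and 2049 and 1605 in p53-/-. Its level was 166 ± 14.6 CPM in WT and 84.8 ± 7.05 CPM in p53-/- (SD, n = 2), 1.96-fold lower, for a log2 fold change of -0.97 ± 0.174 (standard error). Every p53-/- library was at between 0.452 and 0.576 of a WT library.

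Perp (ENSMUSG00000019851), the desmosomal membrane protein, was the most abundant of the 8 genes, with 7146 and 5228 counts in WT and 6595 and 5173 in p53-/-. Its level was 391 ± 72.9 CPM in WT and 273 ± 22.4 CPM in p53-/- (SD, n = 2), a log2 fold change of -0.52 (standard error 0.223). The WT libraries differed from each other by a factor of 1.30, close to the 1.43-fold difference between the means of the genotypes. Without WT library 7, the higher of the pair, the log2 fold change was -0.30 for Perp and -0.25 for Tnfrsf1a.

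Promoter windows from RefSeq, from 250 bases before to 50 bases after a transcript start, were matched by symbol for 6 of the 8 genes, and those of Perp and Tnfrsf10b were not analysed here. The windows of Aen and Ei24 held an exact p53 half-site, the 10-base consensus to which a p53 dimer binds, as did 9.55% of all genes with a window. The matched stretches are shown with the half-site in capitals and 10 bases on each side.
Aen, chr7:78895927-78895956, plus strand: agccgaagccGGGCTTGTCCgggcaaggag
Ei24, chr9:36797325-36797354, minus strand: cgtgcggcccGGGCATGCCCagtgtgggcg
The site of Aen began 10 bases after the start of the more upstream of its 2 transcripts, and that of Ei24 began 10 bases before the start. The windows of Phlda3, Eda2r, Fas and Tnfrsf1a held no exact match, which says only that these letters are not in those windows. A match describes the sequence, and binding of p53 was not measured in these libraries.

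**Figure D2:**
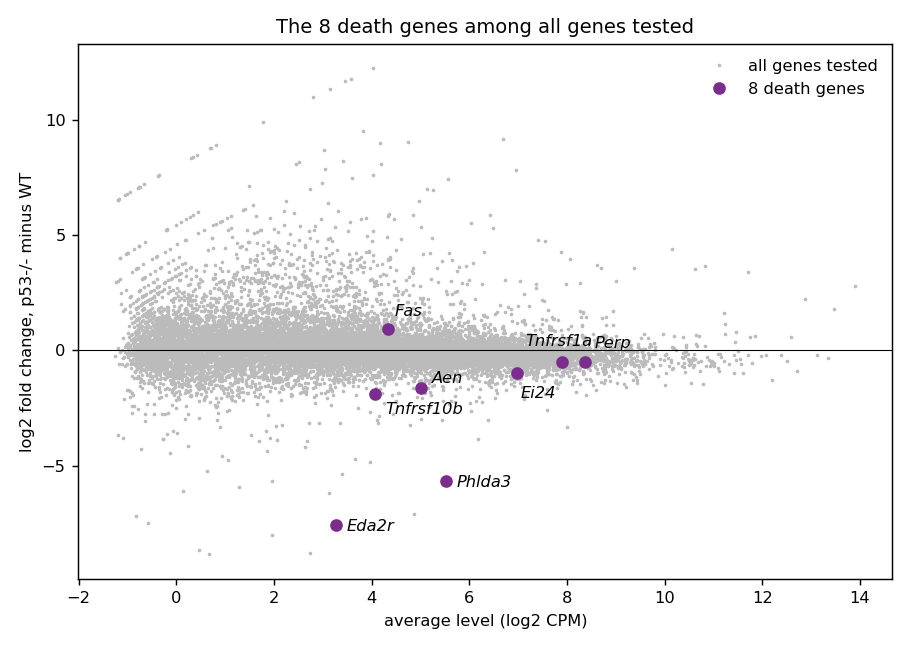
Log2 fold change between p53-/- and WT (vertical axis) against the average level in log2 CPM (horizontal axis) for the 16094 genes tested (grey) and the 8 death genes (purple). Eda2r at -7.59 and Phlda3 at -5.68 lie at the lower edge, Tnfrsf10b, Aen and Ei24 lie between -1.88 and -0.97, Perp and Tnfrsf1a lie near -0.5 among the bulk of genes, and Fas lies above 0.

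Per kilobase of exon, the WT levels ran in the order Perp (200 ± 37.3 CPM per kilobase), Tnfrsf1a (108 ± 23.9), Phlda3 (57.5 ± 2.09), Ei24 (34.1 ± 3.01), Aen (8.37 ± 0.589), Fas (6.70 ± 0.984), Tnfrsf10b (4.80 ± 0.251) and Eda2r (3.24 ± 0.241). No neighbours in this order overlapped between libraries. In p53-/- the order was Perp (140 ± 11.5), Tnfrsf1a (75.8 ± 4.33), Ei24 (17.4 ± 1.45), Fas (12.7 ± 3.47), Aen (2.69 ± 0.464), Tnfrsf10b (1.30 ± 0.0226), Phlda3 (1.11 ± 0.175) and Eda2r (0.0154 ± 0.00981), all as SD with n = 2. Phlda3 thus moved from place 3 to place 7, and Fas from place 6 to place 4. The closest neighbours in p53-/- were Tnfrsf10b, at 1.29 and 1.32, and Phlda3, at 0.989 and 1.24.

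Perp and Tnfrsf1a, the most abundant of the genes, had nearly the same level in both genotypes when set against the epithelium genes. Per 1000 CPM of the 6 epithelium genes, Perp was at 22.5 and 23.5 in WT and at 22.1 and 24.0 in p53-/-. On the same scale Tnfrsf1a was at 16.4 and 16.3 in WT and at 15.6 and 17.6 in p53-/-. On this scale the genotypes overlapped for both genes, whereas in CPM they did not.

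The other 6 genes kept their direction on this scale. Per 1000 CPM of epithelium genes Phlda3 was at 4.44 and 6.38 in WT and at 0.148 and 0.144 in p53-/-, Tnfrsf10b at 1.28 and 1.88 against 0.550 and 0.653, and Aen at 2.35 and 3.54 against 1.34 and 1.28. Ei24 was nearer to equality, at 8.97 and 10.8 against 6.87 and 7.44. Fas was at 0.629 and 1.06 against 1.61 and 2.91, a wider gap than in CPM. When the whole table was scaled to the epithelium genes, the median of all genes shifted by 0.49 on the log2 scale. Perp then had a log2 fold change of -0.01 and Tnfrsf1a of 0.01, a change of sign for Tnfrsf1a. Relative to the shifted median they were at -0.49 and -0.47.

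**Figure D3:**
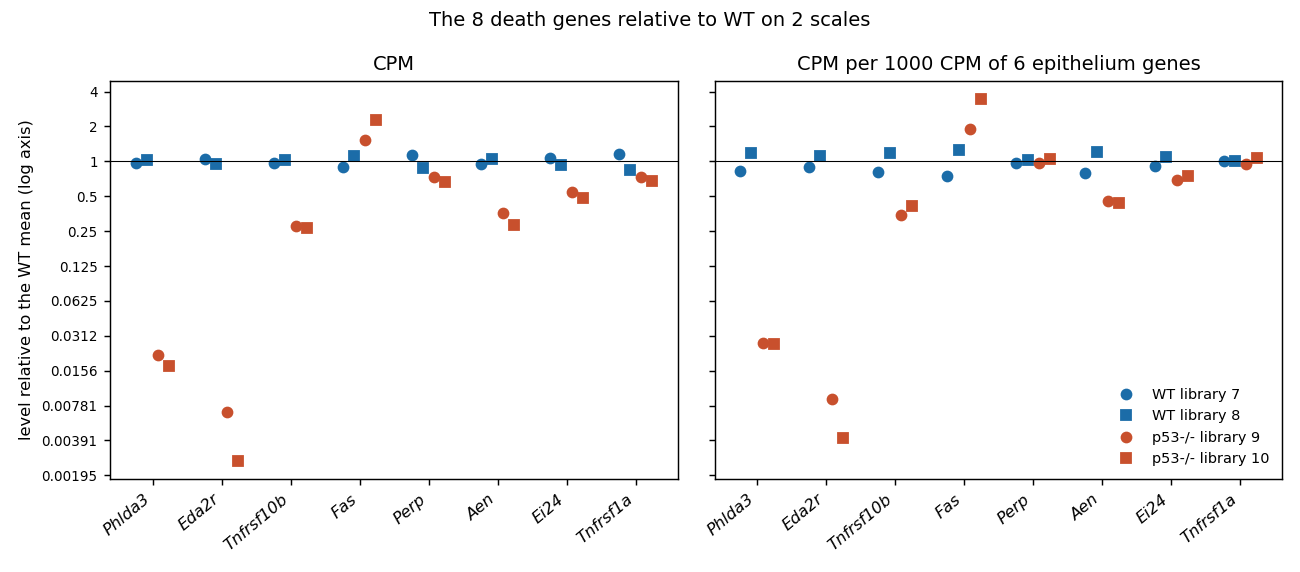
Level of each gene in each library relative to the mean of the WT libraries (log axis), in CPM at left and per 1000 CPM of the 6 epithelium genes at right. At right Perp and Tnfrsf1a of both genotypes lie together around 1, while Phlda3 and Eda2r remain far below 1 in p53-/- and Fas remains above it.

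The ligands of these receptors were examined from a list of 5 genes. None of them passed the threshold, and 2 of the 3 with enough reads to be tested had an unadjusted p under 0.05. For this list and those below, the shares over all genes tested were 0.193% lower and 0.298% higher past the threshold. They were 7.92% and 10% at an unadjusted p under 0.05, and 4.02% and 4.95% with DESeq2. Tnfsf10, which encodes TRAIL, the ligand of Tnfrsf10b, was at 26.4 and 16.8 CPM in WT and at 105 and 76.7 CPM in p53-/- (log2 fold change 2.07 ± 0.286, edgeR adjusted p = 0.0578). Tnf was at 2.54 and 1.62 CPM in WT and at 7.80 and 13.2 CPM in p53-/- (log2 fold change 2.33 ± 0.469, edgeR adjusted p = 0.106). Both p53-/- libraries lay above both WT libraries for Tnfsf10 and for Tnf, and DESeq2 called both higher. Fasl had 4 and 11 counts in WT and 16 and 23 in p53-/-, and its CPM overlapped between the genotypes. The T cell and macrophage sums given above, whose cells make these ligands, were higher in p53-/- as well, and their part was not tested. The ligand Tnfsf10 and its receptor Tnfrsf10b thus differed in opposite directions.

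Of 13 other TNF receptor family genes, 11 were tested and none passed the threshold. Their median log2 fold change was 0.08, against -0.01 over all genes tested, and at an unadjusted p under 0.05 3 were lower and 2 higher. Cd40, a receptor of B cells and antigen-presenting cells, was at 0.124 and 0.843 CPM in WT and at 2.37 and 10.7 CPM in p53-/- (log2 fold change 3.75 ± 1.12, edgeR adjusted p = 0.185). Tnfrsf1b, the second TNF receptor, which is mostly found on immune cells, was at 14.5 and 17.1 CPM in WT and at 31.2 and 35.8 CPM in p53-/- (log2 fold change 1.08 ± 0.206, edgeR adjusted p = 0.103). Tnfrsf1a, the other receptor for TNF, was at -0.51 in CPM and at 0.01 when scaled to the epithelium genes.

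Inside the cell, the 13 genes of the receptor complex and caspase-8 were all tested and none passed the threshold. Their median log2 fold change was 0.08, and at an unadjusted p under 0.05 0 were lower and 2 higher. The adaptor Fadd was at 26.4 and 22.5 CPM in WT and at 20.8 and 20.7 CPM in p53-/-, and Casp8, the initiator caspase, at 237 and 168 CPM against 197 and 180 CPM. Traf1, an adaptor induced in activated lymphocytes, had the largest difference, at 1.49 and 2.08 CPM in WT and 4.25 and 16.6 CPM in p53-/- (log2 fold change 2.54 ± 0.729, edgeR adjusted p = 0.176). Birc3, which encodes an inhibitor of apoptosis, followed with 39.2 and 34.8 CPM against 49.3 and 64.3 CPM. Over these 3 lists 0 of 27 genes tested passed the threshold, beside 0.491% of all genes tested in either direction. At so low a share, 0 of 27 says little about the lists. At an unadjusted p under 0.05 there were 9, 3 lower and 6 higher, beside 7.92% and 10% of all genes tested. DESeq2 called 7, beside 4.02% lower and 4.95% higher of all genes tested.

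The relatives and partners of Phlda3 did not pass the threshold. Of 9 PHLDA and AKT pathway genes, all were tested, and at an unadjusted p under 0.05 1 was lower and 1 higher, with 0 called by DESeq2. Phlda1 was at 25.9 and 48.3 CPM in WT and at 16.8 and 22.7 CPM in p53-/- (log2 fold change -0.91 ± 0.348, edgeR adjusted p = 0.263). Phlda2 overlapped between the genotypes, at 2.66 and 1.43 CPM against 2.41 and 0.945 CPM. Inpp4b, a lipid phosphatase of the same pathway, was at 3.16 and 3.11 CPM in WT and at 6.40 and 11.4 CPM in p53-/-. Akt1 overlapped too, at 157 and 128 CPM against 153 and 149 CPM. The difference of Phlda3 was larger than that of any gene of this list.

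The relatives of Perp were examined as desmosome genes and as genes of the PMP22 family. Of the 6 desmosome genes, 6 had a negative log2 fold change, 4 did not overlap between the genotypes and 0 passed the threshold or had an unadjusted p under 0.05, with 0 called by DESeq2. The largest difference was that of Dsp, which encodes desmoplakin, at 1133 and 698 CPM in WT and 629 and 365 CPM in p53-/-, followed by Jup, at 599 and 471 CPM against 425 and 336 CPM. Their median log2 fold change of -0.45 stood beside -0.47 for the 6 epithelium genes and -0.52 for Perp, and became 0.04 when the table was scaled to the epithelium genes.

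In the PMP22 family of small membrane proteins the median of 5 genes was -1.17, with 0 past the threshold, 3 lower at an unadjusted p under 0.05 and 3 called lower by DESeq2 (Pmp22, Emp1 and Emp2). Pmp22 was at 1793 and 1265 CPM in WT and at 554 and 510 CPM in p53-/- (log2 fold change -1.52 ± 0.284, edgeR adjusted p = 0.0998). Emp2 was at 27.6 and 30.0 CPM in WT and at 12.6 and 11.5 CPM in p53-/- (log2 fold change -1.26 ± 0.207, edgeR adjusted p = 0.0809). Both differed by more than Perp did.

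Of 8 nucleases of cell death and relatives of Aen, 7 were tested, none passed the threshold and 1 was higher at an unadjusted p under 0.05, with 0 called by DESeq2. This was Isg20, an interferon-induced nuclease of the same family and the neighbour of Aen in the genome, with 44 and 29 counts in WT and 137 and 150 in p53-/- (log2 fold change 1.54 ± 0.418, edgeR adjusted p = 0.163). Dnase1 was at 1.42 and 1.95 CPM in WT and at 2.94 and 5.02 CPM in p53-/-. Aen and Isg20 thus differed in opposite directions.

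Ei24 takes part in the formation of autophagosomes, and 9 genes of this process were examined beside it. None passed the threshold, 2 were lower at an unadjusted p under 0.05, DESeq2 called 0, and the median log2 fold change was -0.25, or 0.27 when scaled to the epithelium genes. Atg9a was at 102 and 104 CPM in WT and at 80.3 and 60.1 CPM in p53-/-, and Atg2b at 28.4 and 34.8 CPM against 41.6 and 43.3 CPM.

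Of 27 other p53 targets, all were tested and 7 fell in p53-/- past the threshold, while 0 rose. Of all genes tested, 0.193% passed it with lower levels and 0.298% with higher levels. The median log2 fold change of the 27 was -1.16. Both p53-/- libraries lay below both WT libraries for 21 of them and above for 3, Ddb2, Apaf1 and Dram1. The shares over all genes tested were 24.4% below and 26.4% above. The largest falls were those of Gdf15, at -4.84 on the log2 scale (± 0.308, adjusted p = 0.0150 by the quasi-likelihood test of edgeR), of Ccng1, a cyclin that p53 induces (-3.32 ± 0.203, with the same adjusted p from edgeR), of Psrc1 (-3.15 ± 0.280) and of Plk2 (-2.96 ± 0.348). The other 3 were Bax, Sesn2 and Zmat3. Phlda3 and Eda2r lay below all 27. The log2 fold change of Tnfrsf10b (-1.88) lay between those of Sesn2 (-1.86) and Bax (-2.18), and that of Aen (-1.64) was a little smaller in size than that of Zmat3 (-1.70), the smallest of the 7. Without library 10, 0 of these 27 genes passed the threshold in edgeR's quasi-likelihood test and 14 were lower at an unadjusted p under 0.05, while their median log2 fold change stayed at -1.16. DESeq2 on all 4 libraries called 13 lower. This list was written with earlier results of these libraries known, so its count is no independent support.

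**Figure D4:**
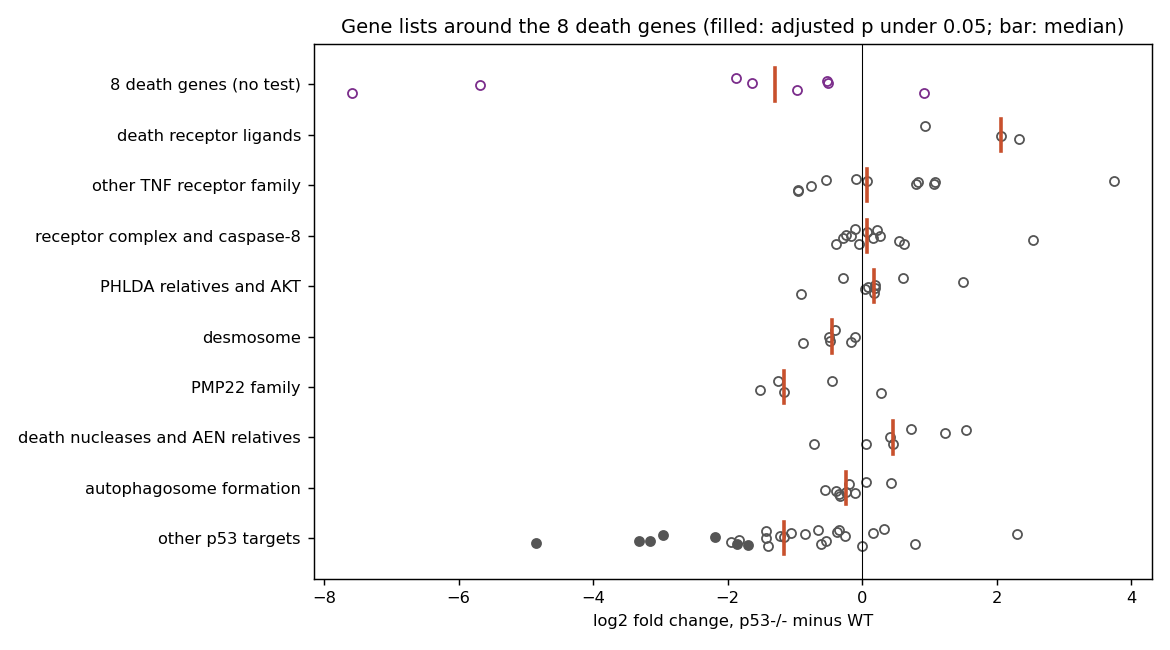
Log2 fold change between p53-/- and WT (horizontal axis) of each tested gene of the lists (points, spread vertically for legibility), with the median of each list as a red bar. Filled points passed the adjusted p threshold, which among the lists around the 8 death genes happened for 7 of the other p53 targets, and no test is shown for the 8 death genes.

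The genes that lie beside the 8 in the genome were not used to choose them. In the GENCODE M21 annotation, 20 tested genes lay within 100 kb of 1 of the 8, and 0 of them passed the threshold with edgeR's quasi-likelihood test, against 0.491% of all genes tested in either direction. At an unadjusted p under 0.05 there were 5, and DESeq2 called 1, Plekhg6, which lies beside Tnfrsf1a. Their median log2 fold change was -0.07. Beside Phlda3, the log2 fold changes of 4 neighbours lay between -1.20 (Tnnt2) and -0.06 (Tnni1). Beside Tnfrsf10b, 4 neighbours lay between -0.68 (R3hcc1) and 0.93 (Rhobtb2). The largest difference among all 20 was that of Fez1 beside Ei24, at -2.18, which had 5 and 62 counts in WT and 19 and 2 in p53-/- and overlapped between the genotypes. Acta2, the smooth muscle actin gene beside Fas, had 1757 and 14228 counts in WT and 5232 and 3611 in p53-/-. Eda2r and Perp had no tested neighbour. Of the genes in the deposited table, 1 overlapped a gene of the 8 in this annotation, the antisense gene Gm26787, which overlaps Ei24 in part, with at most 3 counts in any library against at least 1605 for Ei24.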

How the data were processed

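The deposited table holds the authors' raw counts, not normalized, of reads on each gene in SI RNA from irradiated mice. There are 2 WT and 2 p53-/- libraries. The submitters' processing notes name fastp, HISAT2 2.0.5, featureCounts 1.5.0-p3 and DESeq2 1.20.0. The genome build and the strand setting are not given in the sources used here, so reads of overlapping genes could have been split, and no gene coordinates are given. The names of the columns show the genotype but not the replicate number of the labels. The pairs of libraries within a genotype were further apart than sampling noise (chi-square per degree of freedom 48.0 for WT and 69.5 for p53-/-). The methods call data points biological replicates. The labels do not name animals, so p-values measure the spread between these libraries.

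From these counts, genes with low counts were removed by filterByExpr, libraries were scaled by TMM, and the genotypes were compared, two-sided, with the quasi-likelihood test of edgeR 4.0.16 in R 4.3.3 and Benjamini-Hochberg adjustment. DESeq2 1.42.0 was an alternative. The standard error of a log2 fold change was its size divided by the root of the F statistic. The fit was tested on simulated data first. For a gene with at most 3 counts in each library of 1 genotype, the counts are given with an interval for counting error. Exon lengths and neighbours came from GENCODE M21 (GRCm38), which holds 91.8% of the deposited identifiers, and promoter sequences from RefSeq (GRCm38.p6). The plan had assumed that the deposited table would give the positions of genes, which it does not.

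The 8 genes, the lists and the tests were chosen with earlier results of these data known. Named genes are the 8, all ligands, list genes past the threshold (up to 4) or otherwise the 2 with the largest difference, the same for neighbours, and the 5 nearest profiles. Other genes were named after their values were seen. The TATA and GC box motifs and the leaving out of Rn18s-rs5 were chosen after seeing the data. Rn18s-rs5 held 4.59% of the counts in library 10, against 0.863% in library 9 and 0.296% and 0.473% in WT. Without this gene, 23 genes were lower and 35 higher past the threshold, against 31 and 48 with it. Phlda3 and Eda2r were still the ones of the 8 that passed, and 5 of the 27 other p53 targets did, against 7. Alternatives were other scalings, DESeq2, the likelihood ratio test, other filters, stricter thresholds, a 50 kb window, receptor segments left out and each library left out.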

Additional observations from a re-analysis of the deposited data

How the results depend on the processing

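With DESeq2 the genes past the threshold were 647 lower and 796 higher, against 31 and 48, and with edgeR's likelihood ratio test 462 and 833. Without a filter they were 761 and 1433, and with at least 10 counts in every library, which tests fewer genes, 18 and 24. They were 20 and 29 with upper-quartile factors, 20 and 26 with library sizes only, and 14 and 107 scaled to the epithelium genes. Without immunoglobulin and T cell receptor segments they were 40 and 62, of 15932 genes tested. A stricter limit of 0.01 on the adjusted p left 2 and 4. Of the 8 death genes, 5 were lower past the threshold, against 2, with DESeq2, the likelihood ratio test and no filter each, 4 without immunoglobulin and T cell receptor segments, 1 with at least 10 counts in every library, where Eda2r was not tested, and 1 at an adjusted p under 0.01. Of the 27 other p53 targets 13 fell with DESeq2 and with the likelihood ratio test, 16 without a filter, 2 under epithelium scaling and 0 at an adjusted p under 0.01 (17 at an unadjusted p under 0.05), against 7. Death receptor pathway genes past the threshold numbered 7 with DESeq2, 6 with the likelihood ratio test, 10 without a filter and 1 under epithelium scaling, against 0, and neighbours 1, 1 and 5 in the first 3 of these, against 0. The cause of these differences between settings was not tested.

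With each library left out in turn, where the lone library of a genotype is assumed to vary like the other pair, genes lower numbered 0 to 344 and genes higher 0 to 680. The 8 death genes past the threshold with lower levels numbered 4 without library 7, 5 without library 8, 2 without library 9 and 0 without library 10, where 434 genes were lower and 767 higher at an unadjusted p under 0.05. Other p53 targets numbered 12 without library 7, 11 without library 8, 2 without library 9 and 0 without library 10, death receptor pathway genes 0 to 2 and neighbours 0 to 2. With a library left out, more of the 8 death genes passed where more genes of the whole table passed with lower levels. Nothing about the 8 genes themselves is therefore read from these counts. The log2 fold changes of Phlda3, Eda2r, Tnfrsf10b, Fas, Perp, Aen and Ei24 had the same sign in every alternative. Tnfrsf1a turned from -0.51 to 0.01 under epithelium scaling only. Phlda3 lay between -5.86 and -5.21, Eda2r between -8.39 and -6.59, Fas between 0.66 and 1.41, Ei24 between -1.06 and -0.48, Aen between -1.83 and -1.17 and Tnfrsf10b between -1.92 and -1.40. No paired analysis was possible because the columns carry no replicate numbers of the labels. The depth limits Eda2r in p53-/- to 4 reads in all.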

Other observations

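Of the genes on the death receptor lists, 4 had too few counts to be tested and are given as counts. Lta, which encodes lymphotoxin alpha, had 3 and 3 counts in the WT libraries and 4 and 83 in p53-/- libraries 9 and 10. Tnfrsf26, a mouse receptor of the TRAIL receptor cluster, had 0 and 2 counts in WT and 4 and 52 in p53-/-, so that for both genes most reads came from library 10, the library with the highest B cell sum. Eda, the gene of the ectodysplasins that include the ligand of Eda2r, had 1 and 6 counts in WT and 19 and 2 in p53-/-. Edar, the receptor for the other ectodysplasin, had 1 and 3 counts in WT and 8 and 13 in p53-/-.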
